A study of Mus musculus with 8 samples.

Results

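Gdpd3, Mtap6, F10 and Greb1 are 4 of the 22756 genes counted in RNA-Seq libraries from the distal mouse lung. They were selected on the RPM of these libraries (reads counted on the coding sequence, CDS, per 1000000 such reads), because each was higher in every α7E260A:G library than in every α7G library. Their difference between the α7-genotypes is therefore given as a description and without a test, and tests are reserved for CS, for sex, and for other genes. Gdpd3, Mtap6 and F10 passed the abundance filter, a mean of at least 200 counts over the 8 libraries, as did 7190 genes in all. Gdpd3 and Mtap6 passed it only through their α7E260A:G counts, since their α7G libraries held 66 to 97 and 33 to 79 counts. Greb1, with a mean of 58.1 counts, did not pass, and its fitted values come from the wider filter of edgeR (filterByExpr, 14140 genes). With 0 to 4 counts in α7G, Greb1 passed the wider filter through its α7E260A:G counts.

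The nicotinic acetylcholine receptor α7 is encoded by Chrna7. The α7G mice carry a reporter, IRES-tauGFP, recombined into the 3′ end of that gene, and the α7E260A:G mice carry the same reporter together with the E260A point mutation, so the controls share the reporter allele. All were adult mice of a strain labelled > 90percent C57BL/6, and the origin of the remaining share is not given in the sources used here. Each genotype was either kept in room air as control or exposed to side-stream cigarette smoke (CS) on 5 days per week for 4 months. There was 1 male and 1 female library in each of the 4 groups, the lungs having been lavaged, dissociated and depleted of CD45-positive cells to enrich epithelium, and the number of mice behind a library is not stated in the sources used here. Values of p then measure the spread between these libraries, male and female included, which may be partly technical. The total counts lay between 8020726 and 10944100, so that a floor of 3 counts was 0.274 to 0.374 RPM, and intervals and floors cover counting error only. Chrna7 itself had 0 counts in 7 libraries and 4 counts in the male α7E260A:G control library, and it therefore gives no check of the genotype labels.

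The 4 genes have unrelated textbook roles. Gdpd3 encodes a glycerophosphodiester phosphodiesterase domain enzyme that acts as a lysophospholipase D, releasing lysophosphatidic acid from lysophospholipids for G protein-coupled receptors of the Lpar family. Mtap6, now named Map6, encodes the stable tubule only polypeptide, which protects microtubules from cold-induced disassembly and is best known from neurons. F10 encodes coagulation factor X, a vitamin K-dependent zymogen that factor VIIa with tissue factor activates in the extrinsic pathway, after which factor Xa cleaves prothrombin. Greb1 encodes a coactivator of the estrogen receptor and is itself a classic estrogen-induced transcript.

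In the build of the count tables (mm9, NCBIM37) with the GENCODE M1 annotation, Gdpd3 (ENSMUSG00000030703.7) lies on the plus strand of chromosome 7 from 133909928 to 133919157, with up to 10 exons and a CDS of 990 bases. Mtap6 (ENSMUSG00000055407.7) is on the same strand and chromosome from 106415957 to 106485647, with a CDS of 2718 bases. F10 (ENSMUSG00000031444.9) is on the plus strand of chromosome 8 from 13037308 to 13056676, with a CDS of 1479 bases. Greb1 (ENSMUSG00000036523.9) is on the minus strand of chromosome 12 from 16677421 to 16807692, with up to 35 exons and a CDS of 5870 bases. A gene on the opposite strand, Gm9967, overlaps the 3′ end of Gdpd3, but it drew 1 count in all over the 8 libraries, which were stranded.

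The 250 bases before an annotated transcription start are shown for 3 of the genes, to describe the sequence at that start. They come from RefSeq on GRCm38.p6, at chr7:126766164-126766413 (plus strand) for Gdpd3, chr8:13037058-13037307 (plus strand) for F10 and chr12:16800887-16801136 (minus strand) for Greb1. Each was found once, without mismatch, in NCBIM37, directly adjoining the annotated start of its gene. Capitals mark matches to the motifs searched.
Gdpd3: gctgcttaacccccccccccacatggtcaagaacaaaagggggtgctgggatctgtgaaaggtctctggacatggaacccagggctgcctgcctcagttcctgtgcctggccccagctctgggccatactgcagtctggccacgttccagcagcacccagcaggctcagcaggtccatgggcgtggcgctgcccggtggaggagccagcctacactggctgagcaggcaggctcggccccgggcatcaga
F10: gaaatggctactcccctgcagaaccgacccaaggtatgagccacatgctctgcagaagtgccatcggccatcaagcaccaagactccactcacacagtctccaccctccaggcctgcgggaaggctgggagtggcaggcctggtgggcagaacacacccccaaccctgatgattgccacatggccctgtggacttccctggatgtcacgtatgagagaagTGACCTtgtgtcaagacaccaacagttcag
Greb1: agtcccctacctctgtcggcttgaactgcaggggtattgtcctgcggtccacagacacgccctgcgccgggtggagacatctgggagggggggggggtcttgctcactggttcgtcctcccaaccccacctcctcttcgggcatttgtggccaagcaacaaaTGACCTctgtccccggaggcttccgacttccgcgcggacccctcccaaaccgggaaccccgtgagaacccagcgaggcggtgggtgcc
For Mtap6 no sequence is shown.

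Both strands of these windows were searched for the half-site of the estrogen response element (AGGTCA, held by 14.0% of 32851 such windows in the RefSeq table), the cAMP response element (TGACGTCA, 1.55%), the NF-kB core (GGGACTTTC, 0.289%), a TATA box (TATAAA, 12.4%), an E-box (CACGTG, 6.02%) and a PU.1-type ETS site (GAGGAAGT, 2.44%). The half-site was found on the opposite strand in F10, beginning 30 bases before the start, and in Greb1, beginning 88 bases before it. No other motif matched in the 3 windows, and a match of these letters is not a measured binding site. RefSeq gives a second Greb1 window, inside the annotated gene at chr12:16757240-16757489 (minus strand), which is not shown. It held none of these motifs, 46.0% GC and 2 CG dinucleotides, and which start these libraries used was not examined. The GC content was 65.2% in Gdpd3, 57.6% in F10 and 65.2% in Greb1, against a median of 52.4% over all windows, and the number of CG dinucleotides was 6, 4 and 16, respectively, against a median of 6.0.

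Gdpd3 had the highest fitted log2 difference of α7E260A:G over α7G among the 7190 genes that passed the filter, which it reached through its α7E260A:G counts. Among the 14140 genes of the wider filter Gdpd3 was at rank 20, Mtap6 at rank 33, F10 at rank 60 and Greb1 at rank 12. In α7G it was measured at 7.94 RPM in the male control, 10.4 RPM in the female control, 11.2 RPM in the male CS and 9.25 RPM in the female CS library. In α7E260A:G the corresponding values were 79.0, 198, 225 and 209 RPM. The lowest α7E260A:G library, the male control, was 7.07-fold above the highest α7G library, and the other 3 α7E260A:G libraries lay close together. The mean was 9.68 ± 1.40 RPM in α7G and 178 ± 66.9 RPM in α7E260A:G (SD, n = 4 each), a ratio of 18.4 and a fitted log2 difference of 4.27 ± 0.40 (SE). When libraries were compared within a sex and an exposure, the ratio was 9.95 in male controls, 19.1 in female controls, 20.2 in CS males and 22.6 in CS females.

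Mtap6 was a low-abundance transcript in α7G, with 3.97 and 7.05 RPM in the male and female controls and 7.45 and 8.91 RPM in the male and female CS libraries. In α7E260A:G it was measured at 57.3 and 41.7 RPM in the controls and 68.8 and 61.2 RPM after CS, in the same order. The groups did not overlap, and the lowest α7E260A:G library was 4.68-fold above the highest α7G library. The means were 6.84 ± 2.08 and 57.2 ± 11.4 RPM (SD, n = 4 each), a ratio of 8.36 with a fitted log2 difference of 3.12 ± 0.23 (SE). The ratio within pairs ran from 5.91 in female controls to 14.4 in male controls.

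F10 was the most abundant of the 4 genes in RPM and had the smallest ratio between the genotypes. Its α7G libraries held 60.7 RPM (male control), 81.4 RPM (female control), 70.8 RPM (male CS) and 68.7 RPM (female CS), and its α7E260A:G libraries 461, 329, 235 and 357 RPM, respectively. The α7G values were tight, whereas those of α7E260A:G spread over the range between 235 and 461 RPM, all above α7G. The means were 70.4 ± 8.53 and 345 ± 92.7 RPM (SD, n = 4 each), a ratio of 4.91 and a fitted log2 difference of 2.34 ± 0.23 (SE). Pair ratios were 7.58 and 4.04 in male and female controls and 3.33 and 5.19 in male and female CS libraries. The choice of the members used no numeric threshold of size. F10 stood at rank 10 of the 7190 genes by log2 difference. Non-members above it were also separated in every library, namely Ear6 (3.05), Msr1 (2.83), Fabp4 (2.78), St6galnac2 (2.39), Fabp5 (2.38) and Wfdc10 (2.36), while Orm1 (3.40) overlapped. Dst, which follows F10 at 1.86 and is not a member, was separated in every library as well.

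Greb1 was close to undetected in α7G and present in every α7E260A:G library. The α7G counts were 0 in the male control, 4 in the female control, 0 in the male CS and 3 in the female CS library, or at most 0.427 RPM. The α7E260A:G libraries held 209 counts (25.5 RPM) in the male control, 49 counts (4.48 RPM) in the female control, 144 counts (18.0 RPM) in the male CS and 56 counts (6.19 RPM) in the female CS library. All 4 thus lay above α7G, the 2 male libraries above the 2 female ones. Against the floor of 3 counts per library, Greb1 was at least 70.6-fold higher in the male control pair and at least 51.4-fold higher in the male CS pair. The ratio was 10.5 in female controls (exact 95% counting interval 3.84 to 40.0) and 18.3 in CS females (5.95 to 91.4). Summed over 4 libraries, 458 counts stood against 7, a ratio of 63.5 in RPM (30.6 to 159), and the means were 0.191 ± 0.224 and 13.5 ± 9.96 RPM (SD, n = 4 each).

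**Figure D1:**
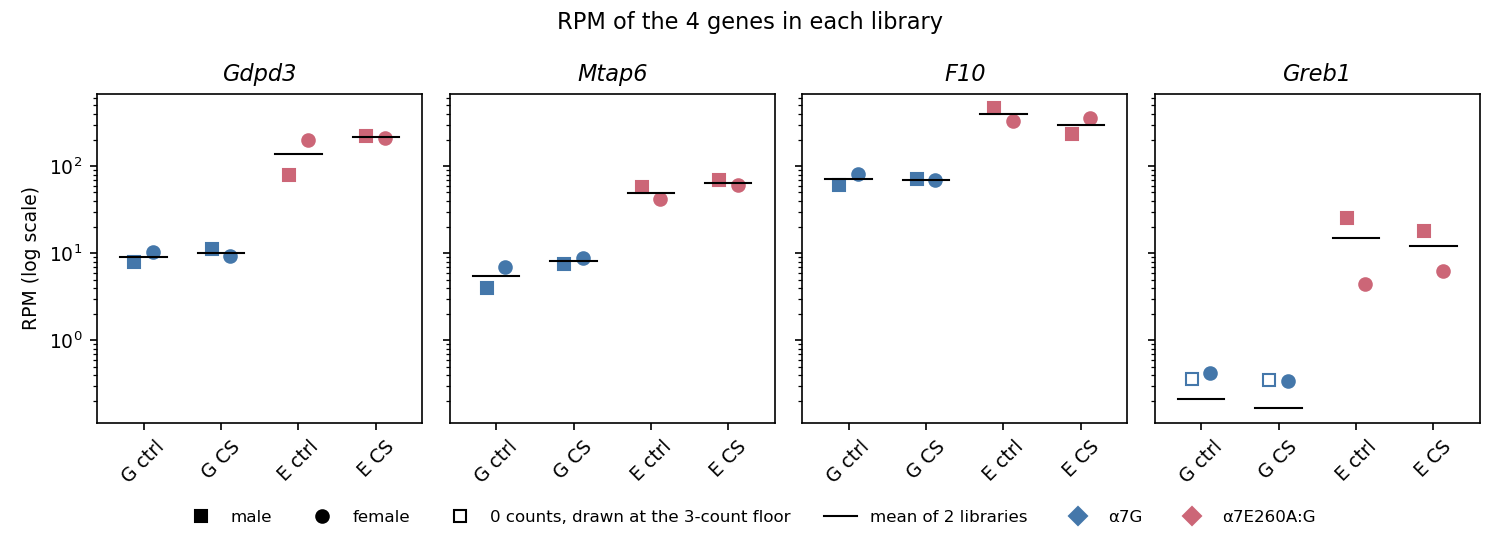
RPM on a log scale (vertical axis) in each of the 8 libraries for Gdpd3, Mtap6, F10 and Greb1, by α7-genotype (G, α7G; E, α7E260A:G) and exposure (ctrl, control; CS). Squares are male and circles female libraries, the line is the mean of 2, and open squares are libraries at 0 counts drawn at the floor of 3 counts; every α7E260A:G library lies above every α7G library in all 4 panels.

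As a background for these separations, 215 of the 7190 genes, 2.99%, had all 4 α7E260A:G libraries above all 4 α7G libraries, and with the wider filter 329 of 14140 genes did so, 2.33%. The members were chosen for it, so nothing is read from their own count. Per kilobase of CDS the genes can be set beside each other. In α7E260A:G, F10 stood at 234 ± 62.7 RPM per kb and Gdpd3 at 180 ± 67.5 RPM per kb (SD, n = 4), neighbours that do not differ beyond their spread. Mtap6 followed at 21.1 ± 4.21 and Greb1 at 2.30 ± 1.70 RPM per kb. In α7G the order was F10 (47.6 ± 5.77), Gdpd3 (9.78 ± 1.42), Mtap6 (2.52 ± 0.764) and Greb1 (0.0326 ± 0.0381 RPM per kb), with no overlap in the first 3 and Greb1 at or near 0.

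Markers of other cells were also unequal between the genotypes. In these bulk samples fewer cells of a type and less RNA per cell cannot be told apart. All 17 alveolar macrophage markers were higher in α7E260A:G by the fitted value, 10 of them with no overlap between libraries, with a median log2 difference of 0.79 (0.04 over all 7190 genes). Over all 7190 genes 56.1% were higher by the fitted value, and 2.99% were higher and 5.15% lower in every α7E260A:G library. At an unadjusted p under 0.05 there were 11 of the 17, DESeq2 called 10 and edgeR with an offset for CDS length 7, against 11.9%, 5.87% and 4.69% of all 7190 genes. None of the 17 was at 0, and Msr1, a scavenger receptor, was the one called by edgeR without the offset (log2 difference 2.83 ± 0.24 (SE), adjusted p = 0.0143, by the quasi-likelihood test of edgeR, adjusted after Benjamini and Hochberg over all genes). Their summed level was 12617 to 19303 RPM in α7G and 26852 to 43305 RPM in α7E260A:G, and most of it was Chi3l3. Ptprc, which encodes the CD45 antigen used for depletion, was detected at 771 to 1940 RPM in α7G and 847 to 1850 RPM in α7E260A:G. Epithelial transcripts were abundant in every library. The club cell list summed to 52719 to 81554 RPM in α7G and 22832 to 52258 RPM in α7E260A:G, without overlap. All 6 club markers were lower in α7E260A:G by the fitted value, 2 of them without overlap. Of the 6, 0 were called by edgeR (2 at an unadjusted p under 0.05), 1 with the offset and 2 by DESeq2. The alveolar type 2 list summed to 20198 to 30802 RPM in α7G and 4820 to 14899 RPM in α7E260A:G, with 7 of 9 tested markers lower without overlap, 0 called by edgeR (7 at an unadjusted p under 0.05), 2 called with the offset and 4 called by DESeq2. The B cell list was lower too, at 1163 to 1974 RPM in α7G and 652 to 800 RPM in α7E260A:G, with 5 of 6 markers lower without overlap. Of these markers 0 were called by edgeR (6 at an unadjusted p under 0.05), 4 with the offset and 5 by DESeq2. The summed levels of the general epithelium, ciliated, neutrophil, T cell, endothelium and mesenchyme lists overlapped between the genotypes, with median log2 differences of -0.71, -0.34, 0.21, -0.24, -0.39 and 0.58, respectively, and no marker of any list was at 0 in all libraries. Single markers could still be separated. Epcam of the general epithelium list (-0.96 ± 0.21, adjusted p = 0.116, edgeR) and Cldn5 of the endothelium list (-0.78 ± 0.15, adjusted p = 0.106, edgeR) were lower in every α7E260A:G library. DESeq2 called both, and 0 in the ciliated, neutrophil, T cell and mesenchyme lists. At an unadjusted p under 0.05 there were 4 of 7 general epithelium and 2 of 6 endothelium markers.

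The 4 genes were also set against the summed macrophage markers, as a description only. These values use the same RPM that chose the genes, so their separation was largely fixed by the choice and nothing is read from it. Per 1000 RPM of the summed markers, Gdpd3 was 0.479 to 0.707 RPM in α7G and 2.94 to 6.94 RPM in α7E260A:G, a ratio of means of 8.10. Mtap6 was 0.315 to 0.471 against 1.02 to 2.13, a ratio of 4.04. For F10, at 3.56 to 4.81 against 7.24 to 17.2, the ratio was 2.32, where the marker sum itself differed 2.21-fold. Greb1 was 0 to 0.0248 in α7G and 0.110 to 0.948 in α7E260A:G. Without Chi3l3 the marker sum differed 1.66-fold, and the ratios were 10.9 (Gdpd3), 5.03 (Mtap6) and 3.04 (F10). These ratios depend on the markers that are summed. Singly the markers differed by 0.17 to 2.83 on the log2 scale, and Msr1 (2.83) and Fabp4 (2.78) exceeded F10 (2.34). The part of these cells in the genotype differences was not tested.

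CS exposure was the intended treatment, and the question was whether it moved the 4 genes in either genotype. None of them passed the test for CS. In α7E260A:G, Gdpd3 was 2.86 times as high after CS as in the control in males and 1.05 times in females, a fitted log2 difference of 0.47 ± 0.49 (SE; adjusted p = 1.0, edgeR). The value rested on the 2 control libraries, and it became -0.11 without the male and 1.56 without the female α7E260A:G control library. In α7G the ratios of Gdpd3 were 1.41 in males and 0.893 in females (0.27 ± 0.53, adjusted p = 0.816, edgeR).

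Mtap6 was higher after CS in all 4 pairs, by 1.88 and 1.26 times in α7G males and females and by 1.20 and 1.47 times in α7E260A:G males and females. Over both genotypes the log2 difference was 0.50 ± 0.22 (SE) with an unadjusted p of 0.0562 and an adjusted p of 0.63 (edgeR). F10 went either way, with 0.511 times the control level in α7E260A:G males, 1.09 times in α7E260A:G females, and 1.16 and 0.843 times in α7G males and females. Its log2 difference was 0.09 ± 0.32 in α7G (adjusted p = 0.908, edgeR) and -0.45 ± 0.31 in α7E260A:G (adjusted p = 1.0, edgeR). Greb1 had 0.705 times the control level in α7E260A:G males and 1.38 times in females (-0.31 ± 0.89, adjusted p = 1.0, edgeR), and at 0 to 4 counts a CS response in α7G was not detectable at this depth.

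The CS response of Gdpd3, Mtap6 and F10 was not shown to differ between the genotypes. The difference of the responses, α7E260A:G minus α7G, was 0.20 ± 0.72 for Gdpd3, -0.35 ± 0.44 for Mtap6 and -0.54 ± 0.44 for F10 (log2, SE; adjusted p = 0.997 for each, edgeR). Over all 7190 genes edgeR called 0 genes (0.0%) in each of the CS comparisons, in α7G, in α7E260A:G and over both genotypes, and 0 (0.0%) for the difference of the responses. At an unadjusted p under 0.05 there were 480, 122, 545 and 102 genes, and DESeq2 called 25, 11, 39 and 3, none of them a member. By the same edgeR test 6 genes (0.0834%) were called between the genotypes, and DESeq2 called 422.

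**Figure D2:**
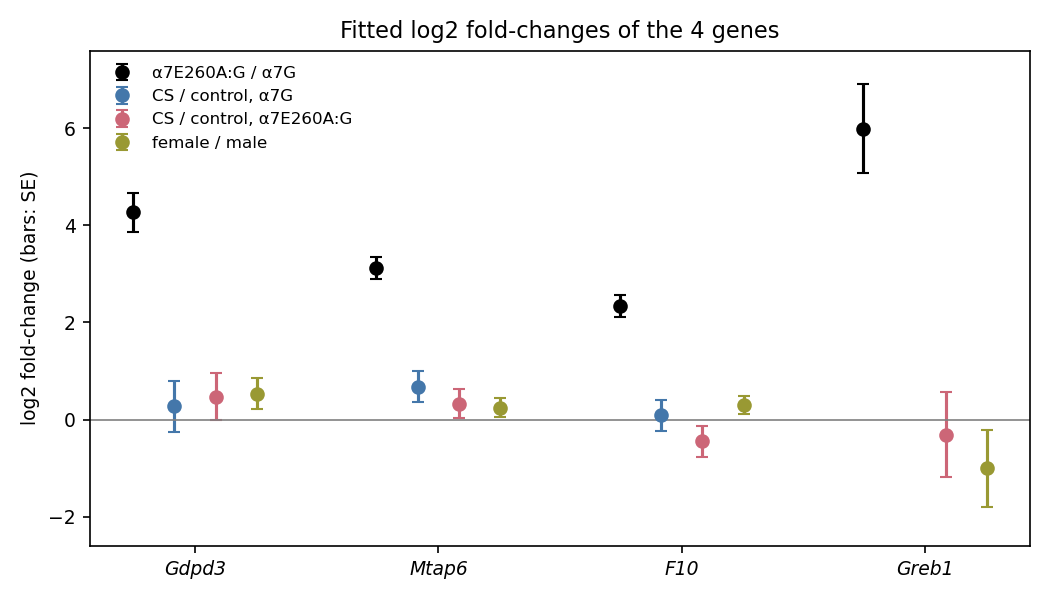
Fitted log2 fold-changes (vertical axis, bars SE) of the 4 genes between the α7-genotypes, after CS in each genotype and between the sexes; the CS value of Greb1 in α7G is left out because its counts were 0 to 4. The genotype values lie between 2.34 and 5.99 while the CS values of Gdpd3, Mtap6 and F10 lie between -0.45 and 0.68; the genotype value of Greb1 depends on the prior count, since 2 of its α7G libraries held 0 counts.

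Sex did not separate Gdpd3, Mtap6 or F10 past the threshold. Female minus male, with the 4 groups in the model, was 0.53 ± 0.33 for Gdpd3 (adjusted p = 0.307), 0.24 ± 0.20 for Mtap6 (adjusted p = 0.422) and 0.30 ± 0.19 for F10 (log2, SE; adjusted p = 0.323, edgeR). Over all genes edgeR called 2 of 7190 (0.0278%). Greb1 was -1.01 ± 0.79 (adjusted p = 0.496, edgeR, wider filter), and within α7E260A:G the female level was 0.176 times the male level in controls and 0.345 times after CS. A contrast of sex within α7E260A:G, added after the values were seen, gave -1.73 ± 0.41 for Greb1 (adjusted p = 0.0405, edgeR), but 17.1% of the 14140 genes were called in it. It did not differ past the threshold from the contrast within α7G (adjusted p = 0.197, edgeR), where the male counts were 0. These libraries also differed in how their counts depended on CDS length, and Greb1 has a long CDS. The log2 deviation per doubling of CDS length was 0.407 and 0.186 in the male α7E260A:G control and CS libraries and -0.237 and -0.196 in the female ones. With an offset for CDS length the contrast of Greb1 became -0.45 ± 0.37 (adjusted p = 0.429, edgeR). In the same contrast the offset moved Mtap6 from -0.01 ± 0.21 to 0.67 ± 0.21 (adjusted p = 0.974 and 0.0507, edgeR). F10 went from 0.36 to 0.56 and Gdpd3 from 0.91 to 0.78 (adjusted p = 0.0988 and 0.0877 with the offset, edgeR).

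The neighbours of the 4 genes were measured to see whether the differences extended along the chromosome. Gdpd3 lies between Mapk3, which encodes the kinase ERK1 and ends 595 bases before it, and Ypel3, which begins 1312 bases after it. Mapk3 was measured at 246 to 303 RPM in α7G and 259 to 437 RPM in α7E260A:G (log2 difference 0.33 ± 0.16 (SE), adjusted p = 0.502, edgeR), and Ypel3 had a log2 difference of -0.29 ± 0.20 (adjusted p = 0.691, edgeR). F10 lies 1499 bases after F7, the gene of coagulation factor VII, on the same strand. F7 had 131, 139, 146 and 147 RPM in the α7G libraries and 115, 167, 239 and 192 RPM in those of α7E260A:G, an overlapping range (0.40 ± 0.22, adjusted p = 0.563, edgeR). On its other side Proz, the gene of protein Z, had a mean of 5.75 counts.

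Mtap6 is followed at 8.24 kb by Serpinh1, a collagen chaperone gene, with a log2 difference of -0.02 ± 0.47 (adjusted p = 0.993, edgeR), and preceded at 28.8 kb by Mogat2, which had a mean of 0.375 counts. Greb1 is flanked by Ntsr2, with a mean of 0.125 counts, and at 10.1 kb by E2f6, whose level was 11.3 to 14.3 RPM in α7G and 10.6 to 17.9 RPM in α7E260A:G (0.22 ± 0.20, adjusted p = 0.782, edgeR, wider filter).

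Within 1 Mb of either end there were 82 other counted genes at Gdpd3, 32 at Mtap6, 32 at F10 and 13 at Greb1, of which 41, 11, 13 and 10 passed the abundance filter. Of these 75 genes edgeR called 0 between the genotypes. It called only 0.0834% of all 7190 genes, too few for 0 of 75 to say anything about the neighbours. At an unadjusted p under 0.05 there were 14, and DESeq2 called 6, the largest at a log2 difference of -1.20. Over all 7190 genes 11.9% had an unadjusted p under 0.05, and DESeq2 called 5.87%. The median log2 difference was -0.03 at Gdpd3, 0.11 at Mtap6, 0.08 at F10 and 0.12 at Greb1, against 0.04 over all tested genes. Only 1 neighbour past the filter, Atp6v1c2 beside Greb1, a subunit gene of the vacuolar proton pump, exceeded 2-fold, and in the opposite direction (-1.21 ± 0.26, adjusted p = 0.116, edgeR). Over all 7190 genes, 2.99% were higher and 5.15% lower in every α7E260A:G library. Of the 75, Lamp1, a lysosomal membrane gene 0.103 Mb from F10, was higher in every α7E260A:G library (0.62 ± 0.17, adjusted p = 0.182, edgeR), and 10 were lower in every one. With the wider filter 2 more exceeded 2-fold, the cytokine subunit gene Il27 at 0.172 Mb from Gdpd3 (1.58 ± 0.45, adjusted p = 0.212, edgeR) and the potassium channel subunit gene Kcne3 at 0.842 Mb from Mtap6 (1.01 ± 0.34, adjusted p = 0.289, edgeR).

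**Figure D3:**
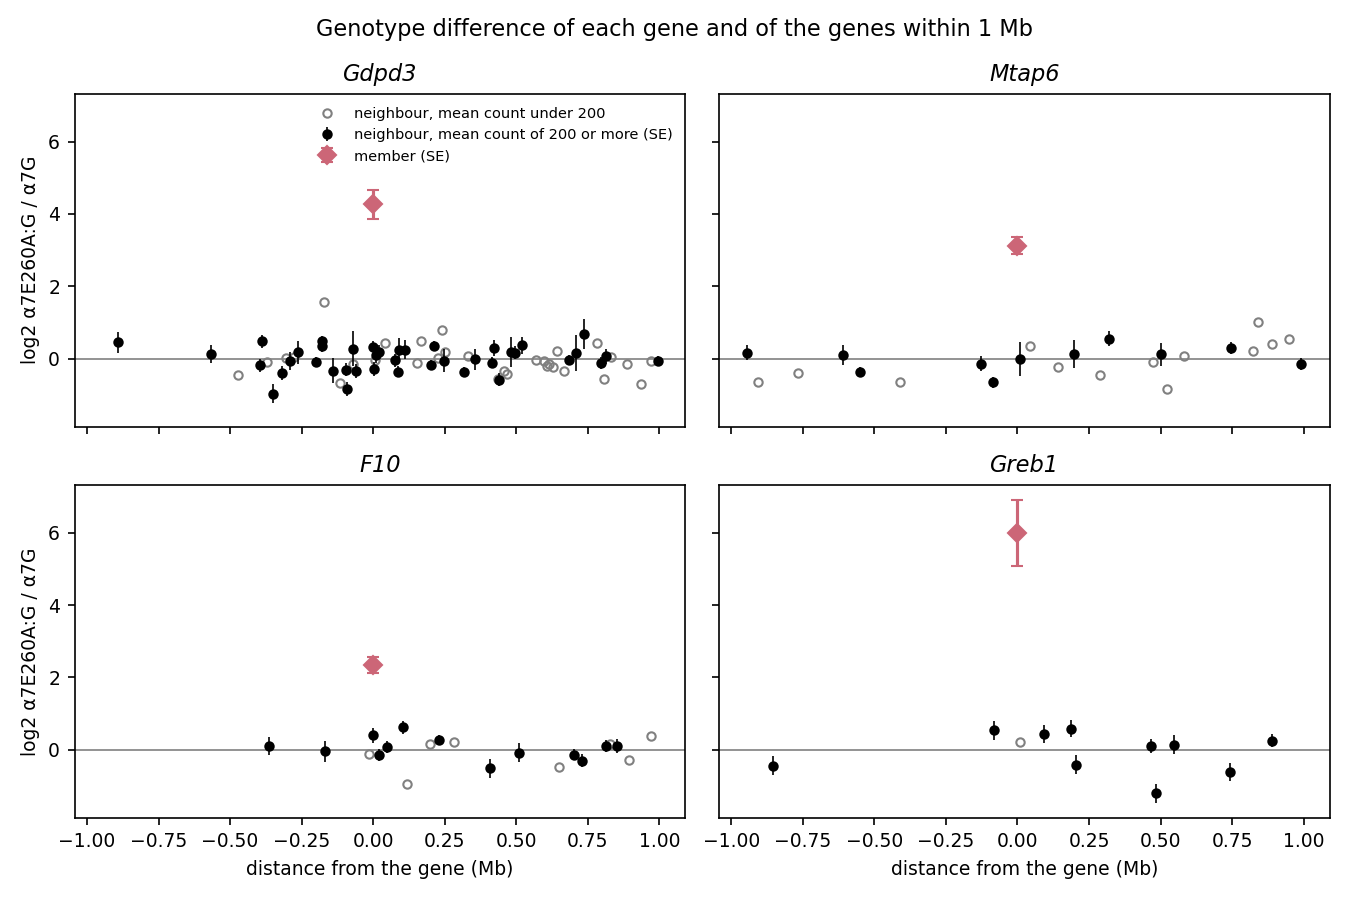
Log2 difference between α7E260A:G and α7G (vertical axis) of each of the 4 genes (diamonds, bars SE) and of the genes within 1 Mb (horizontal axis, distance in Mb along the chromosome). Filled circles have a mean of at least 200 counts (bars SE) and open circles fewer; in each panel the member stands above all of its neighbours.

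Gdpd3 and Mtap6 share chromosome 7 with Chrna7, the mutated gene, which lies from 70243578 to 70357455. Mtap6 is 36.1 Mb and Gdpd3 is 63.6 Mb from it, and the pair is itself separated by the stretch between these distances. Genes more than 4-fold apart whose libraries did not overlap were counted per chromosome with the wider filter, leaving out gene classes removed by name. Chromosome 7 had 10 of 1066 such genes (0.938%), 5 higher and 5 lower, against 59 of 13657 (0.432%) over all chromosomes. The 10 include Mtap6 and Gdpd3 themselves. They also include Trim5, Trim12a, Trim30d, Trim34a, Trim34b and Gvin1, which lie in 1 stretch 41.0 to 42.9 Mb from Chrna7, so the share does not describe the chromosome as a whole. Chromosome 8 had 5 of 745 (0.671%), F10 among them, and chromosome 12 had 2 of 459 (0.436%), Greb1 among them. The nearest called gene to Mtap6 was Trim12a, of a family of antiviral ubiquitin ligase genes, 4.96 Mb away and lower in α7E260A:G (adjusted p = 0.000184, edgeR). These counts describe the genotype difference that chose the members, and no test was applied to them.

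**Figure D4:**
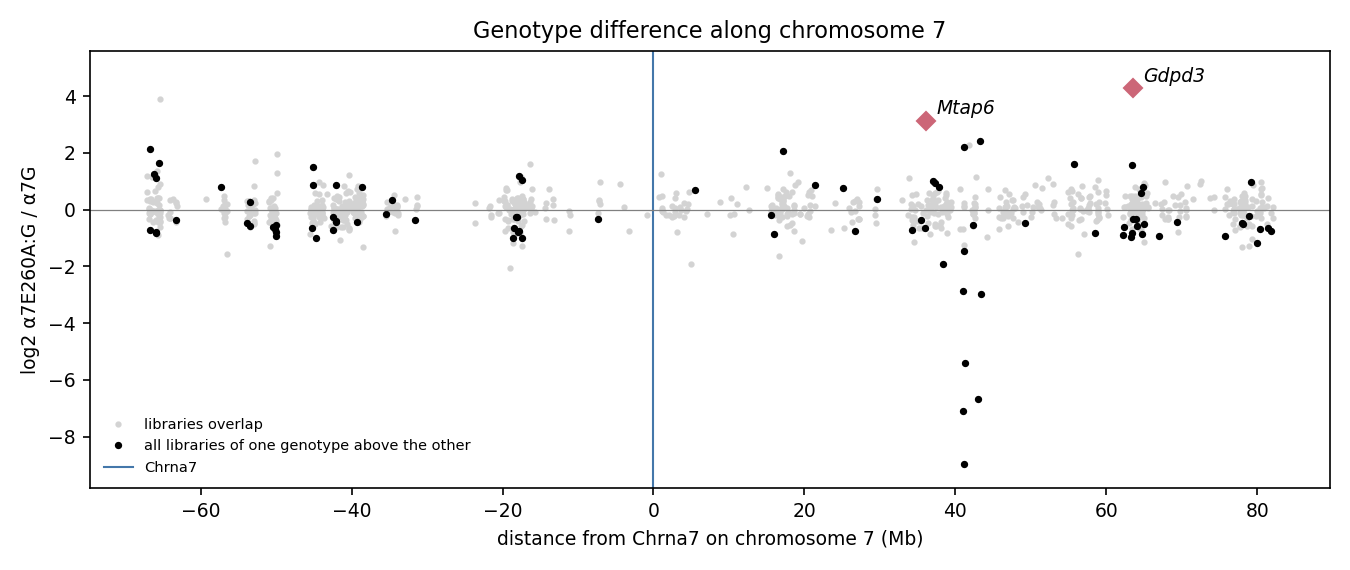
Log2 difference between α7E260A:G and α7G (vertical axis) of chromosome 7 genes against their distance from Chrna7 in Mb (horizontal axis), with the wider filter. Diamonds are Mtap6 and Gdpd3, black points are genes with no overlap between the genotypes, and the lowest point is Trim12a.

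None of the tested pathway partners of the 4 genes was called between the genotypes by edgeR, which called only 0.0834% of all 7190 genes. With the CDS length offset 3 partners were called, where 4.69% of all genes were. Counts at an unadjusted p under 0.05 and by DESeq2 are to be read against 11.9% and 5.87% of all 7190 genes. Counts of genes higher in α7E260A:G are to be read against 56.1% of all 7190 genes. Of the list of glycerophosphodiesterase and lysophosphatidic acid genes, 11 besides Gdpd3 passed the filter, 0 were called between the genotypes (2 at an unadjusted p under 0.05, 0 by DESeq2), and 3 of the 11 were higher in α7E260A:G, with a median log2 difference of -0.125. Gpcpd1, a glycerophosphocholine phosphodiesterase gene, was at 0.44 ± 0.18 (SE), and Gde1, of the same domain family as Gdpd3, was at -0.20 ± 0.23. Enpp2, which encodes autotaxin, the secreted enzyme that makes lysophosphatidic acid, was at -0.05 ± 0.16. Ppap2a, a lipid phosphatase gene, was lower in every α7E260A:G library (-0.51 ± 0.20, adjusted p = 0.36, edgeR).

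Among microtubule-associated protein genes 14 besides Mtap6 passed the filter, 0 were called (0 at an unadjusted p under 0.05, 0 by DESeq2), and the median was 0.19, with 12 of 14 higher and 0 separated. The furthest were Mtap1b, a neuronal microtubule protein gene, at 0.74 ± 0.44 and Mtap7, which recruits kinesin, at -0.46 ± 0.21 (log2, SE).

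Among coagulation and fibrinolysis genes 14 besides F10 passed the filter, with a median of 0.15, 7 of 14 higher and 0 called (4 at an unadjusted p under 0.05, 3 by DESeq2). Plaur, the urokinase receptor gene, had 0.84 ± 0.15 (adjusted p = 0.105, edgeR) and was higher in every α7E260A:G library. F3, the tissue factor gene, was at -0.84 ± 0.23 (adjusted p = 0.177, edgeR), and DESeq2 called both. Ggcx, the gene of the enzyme that carboxylates factor X with the help of vitamin K, was at -0.28 ± 0.20. Vkorc1, the gene of the enzyme that recycles vitamin K, was at -0.02 ± 0.28. F2, the prothrombin gene and substrate of factor Xa, had a mean of 8.25 counts.

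Among estrogen receptor and estrogen-responsive genes 12 besides Greb1 passed the filter, with a median of 0.18, 8 of 12 higher and 0 called (3 at an unadjusted p under 0.05, 1 by DESeq2). The estrogen receptor gene Esr1 itself had a mean of 14.1 counts and a log2 difference of -0.57 ± 0.52 (SE, wider filter). Ctsd, the cathepsin D gene, was higher in every α7E260A:G library (0.97 ± 0.26, adjusted p = 0.18, edgeR) and was the one DESeq2 called, Nrip1, a corepressor gene of nuclear receptors, was at 0.92 ± 0.31, and Ccnd1, the cyclin D1 gene, was lower in every one (-0.77 ± 0.23, adjusted p = 0.223, edgeR). For CS, over either or both genotypes, 0 genes of the 4 lists were called by edgeR (5 at an unadjusted p under 0.05 in at least 1 CS comparison, 1 by DESeq2). Over all 7190 genes edgeR also called 0 in these comparisons. At an unadjusted p under 0.05 there were 480 genes in α7G, 122 in α7E260A:G and 545 over both genotypes.

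**Figure D5:**
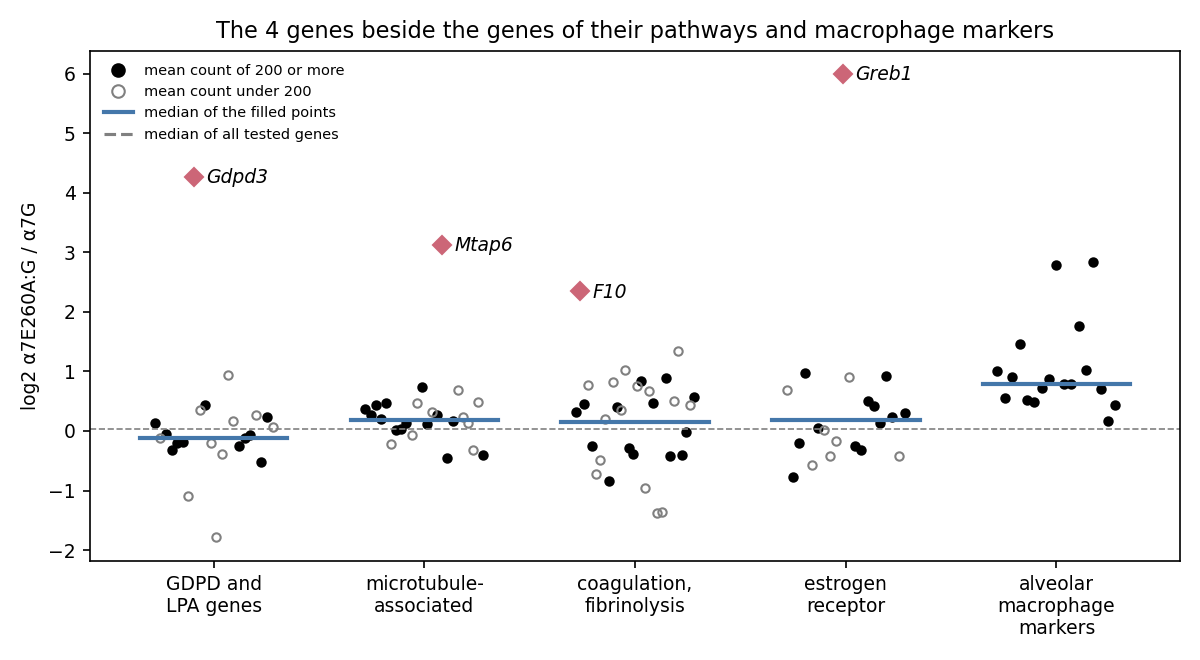
Log2 difference between α7E260A:G and α7G (vertical axis) of the genes in the list of each member and of the alveolar macrophage markers. Diamonds are the 4 genes, filled circles have a mean of at least 200 counts, open circles fewer, blue lines are medians of the filled circles and the dashed line is the median of all tested genes at 0.04; the macrophage markers have a median of 0.79.

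The genes whose levels followed each member most closely over the 8 libraries were found by Pearson's r of log2(RPM + 0.5) over those past the filter. These r describe libraries that share the genotype separation used in the choice, and carry no p. Nearest to Gdpd3 were Tbxas1, the thromboxane synthase gene (r = 0.986), Wls, Best1, Ppt1 and Gusb (r = 0.969 for the last). For Mtap6 they were Bckdhb (r = 0.983), Gusb, Ttyh2, Slc29a1 and Ppt1 (r = 0.966). For F10 they were Mtap6 (r = 0.951), Qpct, Ppt1, Slc29a1 and Gusb (r = 0.938), and for Greb1 they were Ttyh2 (r = 0.962), Slc6a4, Mgll, E2f1 and Slc7a2 (r = 0.959). Gusb and Ppt1, the genes of the lysosomal enzymes β-glucuronidase and palmitoyl-protein thioesterase, were among the nearest of Gdpd3, Mtap6 and F10. Their log2 differences between the genotypes were 0.60 and 0.87, well below those of the members.

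Between members r over the 8 libraries was 0.874 to 0.961. After the mean of each genotype was taken away it ran from -0.635 for Gdpd3 and F10 to 0.503 for Mtap6 and Greb1, so that the levels of the 4 genes were not ordered alike within a genotype.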

How the data were processed

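RNA-Seq libraries from CD45-depleted distal lung cells of 8 samples, 1 male and 1 female per group, were analysed. The authors prepared stranded mRNA libraries, aligned reads with STAR to mm9 (NCBIM37) and counted them on coding sequences with HTSeq and GENCODE M1 (versions not given in the sources used here), and deposited the raw counts of 22756 genes without normalization. All were matched by identifier in GENCODE M1, which gave coordinates and CDS lengths. Total counts were 8020726 to 10944100, and a floor of 3 counts was 0.274 to 0.374 RPM.

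The members and the gene lists were chosen with earlier results of these data known. Counts with a mean of at least 200, without immunoglobulin, histocompatibility, Gm and ribosomal genes, were tested with edgeR 4.0.16 in R 4.3.3 (glmQLFit and glmQLFTest, TMM, Benjamini-Hochberg adjustment over all genes, threshold 0.05) in a model of the 4 groups, with sex added for the contrast of sex. SE were derived from the F statistic. RPM used total counts. Greb1 was fitted with filterByExpr. Python 3.11.15 with pandas 2.3.3 and scipy 1.17.1 was used for exact Poisson and binomial intervals, and matplotlib 3.10.9 for the figures. The tests were first run on artificial counts with known changes. Named genes were the members, the genes next to them, neighbours within 1 Mb that were called or exceeded 1 on the log2 scale, Chrna7, the 5 genes most correlated with each member, marker lists, and genes of each list that were called or furthest apart. Gusb, Ppt1, Dst, Lamp1, Trim12a and the pathway genes with a named role (F2, Ggcx, Vkorc1, Esr1, Enpp2, Gde1) were singled out after their values were seen. So were the genes named above F10 in rank and the other chromosome 7 genes named near Trim12a. Alternatives were DESeq2 1.42.0, scaling by total count, filterByExpr, all genes with at least 1 count, sex as a replicate block, a lowess offset for CDS length (span 0.667), both together, leaving out each library, windows of 0.5 and 5 Mb, a pseudocount of 1 RPM and TMM-scaled RPM. The contrast of sex within a genotype and the ratio to macrophage markers were added after the data were examined. Male libraries were numbered 1 and female libraries 2. The deviations of same-sex libraries correlated between groups from -0.122 to 0.834. Reads were not realigned, and the mutation was not examined. A gene of the lists is counted but not reported here by name.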

Additional observations from a re-analysis of the deposited data

How the results depend on the processing

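The direction of the genotype differences of the 4 members was fixed by their choice, and only their size is given here. Leaving out each library in turn, the log2 fold-change ran from 3.72 to 4.54 for Gdpd3, 2.93 to 3.37 for Mtap6, 2.11 to 2.52 for F10 and 5.27 to 7.97 for Greb1, highest for Greb1 without the female α7G control library, which left 3 α7G counts. Each group had 2 libraries, and Greb1 rested on 7 counts in α7G.

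The number of genes called between the genotypes depended strongly on the setting. Against 6 genes, it was 13 with filterByExpr, 69 with all genes of at least 1 count, 40 with sex as a replicate block, 337 with the CDS length offset, 645 with block and offset together, and 422 with DESeq2. It ran from 1 to 275 when libraries were left out, 121 without the male and 275 without the female α7E260A:G control library, 2 without either α7G control library and 1 without either α7G CS library. Calls for CS in α7G were 25 with DESeq2, for CS in α7E260A:G 11 with DESeq2, 3 with all genes and 1 with filterByExpr, for CS over both genotypes 39 with DESeq2, 2 with block and offset, and 1 with all genes (0 to 1 when libraries were left out, 1 without the female α7E260A:G control), and for the difference of the responses 3 with DESeq2. Calls between the sexes were 4 with the offset, 4 with block and offset, 4 with all genes, 42 with DESeq2, and 2 to 3 when libraries were left out. Neighbours called within 1 Mb, 0 by the reported test, were 1 with the replicate block, 5 with the offset, 9 with both, 6 with DESeq2 and 0 to 3 when libraries were left out (3 without the female α7E260A:G control), and 1 (Trim12a) within 5 Mb. The largest of these calls within 1 Mb was Atp6v1c2 at -1.41 on the log2 scale, without the female α7E260A:G control. Pathway list genes called between the genotypes, 0 by the reported test, were 3 with the offset, 5 with block and offset, 4 with DESeq2 and 0 to 3 when libraries were left out (2 without the male and 3 without the female α7E260A:G control). The causes were not tested.

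No member was called for CS, its interaction or sex with both genotypes in 1 contrast under any of these settings, and Greb1 was called between the sexes within α7E260A:G. Of 253 values of members in these comparisons 13 changed sign. F10 after CS in α7G became -0.012 by total count. Greb1 after CS in α7E260A:G became 0.075 with the offset and 0.074 with block and offset, and between the sexes 0.004 with each of these and 0.63 with DESeq2. When libraries were left out, CS in α7G ran from -0.14 to 0.39 for F10, CS in α7E260A:G from -0.11 to 1.56 for Gdpd3 and -1.10 to 1.14 for Greb1, and the difference of the responses from -0.39 to 1.29 for Gdpd3 and -0.895 to 0.024 for Mtap6. The CDS length offset moved the median of all genes from -0.01 to 0.16 between the sexes, from -0.02 to 0.10 for CS in α7G and from 0.03 to -0.12 for the difference of the responses. The replicate block changed no call of a member. The same-sex libraries share a label but not every pair of groups deviated together, so the block does not show pairing. All 5 genes most like each member were retained with a pseudocount of 1.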
